A study of Rattus norvegicus and Mus musculus with 251 samples.

Results

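The genes described here encode the proteins of the cytosolic ribosome in the mouse. They were chosen by symbol from the mouse count table: protein-coding genes named Rpl or Rps and a digit, with Rpsa, Rplp0, Rplp1 and Rplp2, and without the Rps6k kinases, Rps19bp1 and symbols that end in -ps. The rule gave 91 of the 46078 gene identifiers. Of these, 54 belong to the large subunit, 34 to the small subunit and 3 to the P stalk, the part of the large subunit that binds translation factors. The letter of the rule also keeps 6 protein-coding genes whose symbols, with a number after -ps, name them as copies of a parent gene. They are Rpl10-ps3, Rpl36-ps4, Rpl36a-ps1, Rpl9-ps1, Rpl9-ps6 and Rps12-ps3. Rps27rt and Rpl10l, whose annotated spans are no longer than their transcripts, are not among these and were counted with the other genes. Fau and Rack1 encode ribosomal proteins too, but their symbols are outside the rule.

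Ribosomal proteins are made in matched amounts and assembled on ribosomal RNA in the nucleolus. Their mRNAs typically start with a C followed by a run of pyrimidines, the terminal oligopyrimidine tract, which the protein LARP1 binds and through which the kinase mTOR sets their translation. In neurons, ribosomal protein mRNAs are found in axons and dendrites as well as in the cell body, and phosphorylation of the small subunit protein RPS6 is widely used as a sign of recent activity.

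The study measured RNA in punches of 0.5 mm from the prefrontal cortex (PFC) and the nucleus accumbens (NAc) of inbred C57BL6J mice of both sexes. The labels give 4 treatments: saline (Sal), chronic morphine (Chronic mor), morphine and then 24 h (Mor + 24h), and morphine and then 2 weeks (Mor + 2W). The PFC set had 6, 8, 9 and 7 libraries in that order, and the NAc set 7, 8, 9 and 8. Dose, route and age are not given in the sources used here, nor whether a library is 1 animal, so p-values measure the spread between libraries. The labels call the cell type neuron, but these are bulk punches. Microglia markers summed to between 184.04 and 305 CPM (read counts scaled to the library's total) in PFC and between 186 and 362 in NAc. Of the 8 marker lists, 7 were above 0 in every library, and the choroid plexus and ependyma list was at 0 in PFC number 10. In bulk tissue, fewer cells of a type and less RNA per cell cannot be told apart.

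Some libraries stood apart. Depth was 22387525 to 43963295 counts in genes, except for PFC number 10, a library of the 2-week group, with 5182601. Both libraries of number 27, labelled female and of the chronic group, held Y-linked RNA (Ddx3y at 5.72 log2 CPM in PFC and 6.28 in NAc). Their Xist stood at -3.96 in PFC and 0.13 in NAc, against 5.99 to 8.95 in the other libraries labelled female. These values do not match the label, which was kept in the fits. In the NAc library of number 28, labelled male, Xist stood at 4.2 log2 CPM. The PFC library of number 31 had choroid plexus and ependyma markers at 3330 CPM in sum, against at most 156.4 in any other PFC library. Striatal projection neuron markers ranged from 444 to 8813 CPM in sum over the NAc libraries.

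The annotated transcript starts were searched for the tract. A C followed by 4 pyrimidines opened at least 1 basic coding transcript (GENCODE M21, GRCm38) of 21 of the 91 genes, or 23.1%, against 884 of 21374 other protein-coding genes, or 4.14%. Counting 1 representative transcript per gene, 10 of the 91, or 10.99%, matched. The search covered the first 5 bases of the sense strand, and annotated starts need not be the starts used in these tissues. The first 20 bases, 5′ to 3′, of 8 matching transcripts are shown. They belong to genes with long tracts or to genes on which the results below turn. For Rpl29, Rps18 and Rps27 the transcript shown is not the representative one, and the representative one does not start with a pyrimidine. Capitals mark the unbroken run of pyrimidines from the first base.
Rps24, chr14:24490718-24490737, plus strand: CTCTTTTCCTCCTCTCCagc
Rpl32, chr6:115808728-115808747, minus strand: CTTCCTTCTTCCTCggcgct
Rps2, chr17:24720110-24720129, plus strand: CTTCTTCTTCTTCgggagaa
Rpl4, chr9:64173375-64173394, plus strand: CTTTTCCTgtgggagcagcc
Rpl29, chr9:106429538-106429557, plus strand: CTCTTCCggtctccggcgct
Rps18, chr17:33955644-33955663, minus strand: CTCTTCCacaggaggcctac
Rps27, chr3:90213628-90213647, minus strand: CTTTCCggcggtgacgacct
Rps27rt, chr9:114982720-114982739, minus strand: CTTTCCggcggtgacgacct
The last pair is identical over these 20 bases. Rps27rt is a copy of Rps27, which encodes a small subunit protein. Of the 75-base words of the Rps27rt transcript, 90.3% also occur in transcripts of other genes, and of the Rps27 transcript 98.5%. A single read of 75 bases from such a word matches more than 1 gene. The reads came in pairs, and the search did not consider mates, so how many pairs could be placed is not known. The counts of both genes are uncertain.

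Levels between genes were compared as CPM per kilobase of 1 annotated transcript per gene, over all 62 libraries. Rplp1, which with Rplp2 forms the stalk's flexible arms, was highest at 649 CPM per kilobase. Rplp0, the stalk's base, stood at 126.003 and Rplp2 at 107.8. In the small subunit Rps15 (455) and Rps21 (393) led, and in the large subunit Rpl8 (378) and Rpl13a (332). The lowest small subunit genes were Rps12-ps3 (6.09) and Rps27l (14.5), and the lowest large subunit genes were Rpl10l and Rpl36-ps4. Those last 2 had no count in any library, out of 1930187129 counts in all, and a floor of 3 counts over all libraries allows up to 0.00155 CPM.

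The paralogues of each pair stood at different levels. Rpl3 stood at 176.98 ± 40.3 CPM per kilobase in PFC (SD, n = 30) and 234 ± 30.2 in NAc (n = 32), whereas Rpl3l, the paralogue known from muscle, stood at 0.209 and 0.361. Rpl39 stood at 37.1 in PFC and 46.4 in NAc, while Rpl39l, known from the testis, had at most 15 counts in a library. Rpl10l, the testis copy of Rpl10, was the unexpressed one of its pair, with Rpl10 at 46 in PFC and 56.8 in NAc. Rpl22l1 was the exception in its size. It stood at 54.1 ± 20.7 in PFC and 97 ± 11.4 in NAc, against 39.4 ± 5.74 and 38.9 ± 3.02 for Rpl22. Rpl7 (118.2 in PFC, 150.9 in NAc) exceeded Rpl7l1 (14.7 and 15.9), Rpl36a (90.9 and 120) exceeded Rpl36al (48.3 and 55.4), and Rps27 (140 and 290) exceeded Rps27l (10.7 and 18) and Rps27rt (21.8 and 52).

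**Figure D1:**
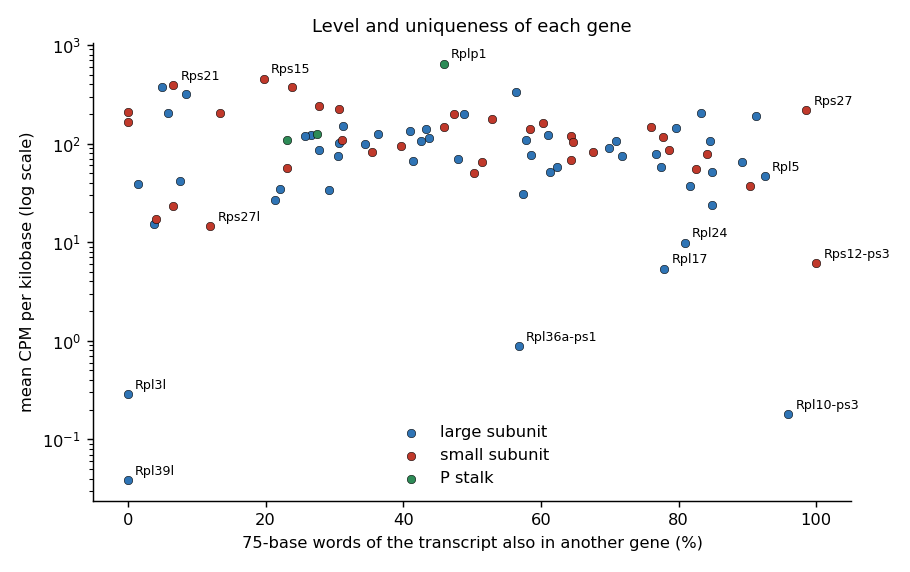
Mean level of each gene over the 62 libraries (vertical, CPM per kilobase on a log scale) against the share of its 75-base words that other genes' transcripts also hold (horizontal, percent). Each point is a gene, coloured by subunit, and genes below 0.01 are not drawn. Rplp1 is highest at 649, and Rpl17 (5.38) and Rpl24 (9.83) lie low among genes with most of their words shared.

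Sharing of sequence and level had no single order. The median level was 49.4 CPM per kilobase over the 22 genes with under 25% of their words shared and 118.6 over 25 genes up to 50%. It was 90.1 over 19 genes up to 75% and 78.1 over 19 above that. Genes with a numbered -ps symbol were left out of these medians. Rpl17, with 77.9% of its words shared, stood at 5.38 CPM per kilobase, and Rpl24, with 80.9%, at 9.83, while Rps3, with no shared word, stood at 165.5. Rps27, at 98.5%, stood at 217. The length used was between 345 and 5179 bases, and a gene whose chosen transcript is longer than the one expressed is set too low. Counts in annotated pseudogenes with ribosomal protein names came to 5.50 per 100 counts in the 91 genes.

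Together the 91 genes took a share of the gene counts that differed more between PFC libraries than between NAc libraries. In PFC saline mice the share was 0.574% at the lowest, 0.796% at the median and 1.01% at the highest (0.782 ± 0.157, SD, n = 6). Under chronic morphine it was 0.418%, 0.558% and 0.996% (0.597 ± 0.192, n = 8), at 24 h 0.567%, 0.697% and 1.03% (0.761 ± 0.161, n = 9), and at 2 weeks 0.496%, 0.654% and 0.965% (0.729 ± 0.169, n = 7). In NAc the saline libraries lay between 0.955% and 1.17% with a median of 1.09% (1.08 ± 0.0664, n = 7). The chronic libraries lay between 0.873% and 1.18% with a median of 0.950% (0.972 ± 0.105, n = 8), those at 24 h between 0.988% and 1.07% (1.03 ± 0.0252, n = 9), and those at 2 weeks between 0.910% and 1.25% (1.08 ± 0.107, n = 8). All groups of a region overlapped. With number 10 left out, 85 of the 87 genes tested had a larger within-group SD in PFC, at a median of 0.40 log2 units against 0.15 in NAc. This count was made for members only, so the difference is not shown to be particular to them.

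**Figure D2:**
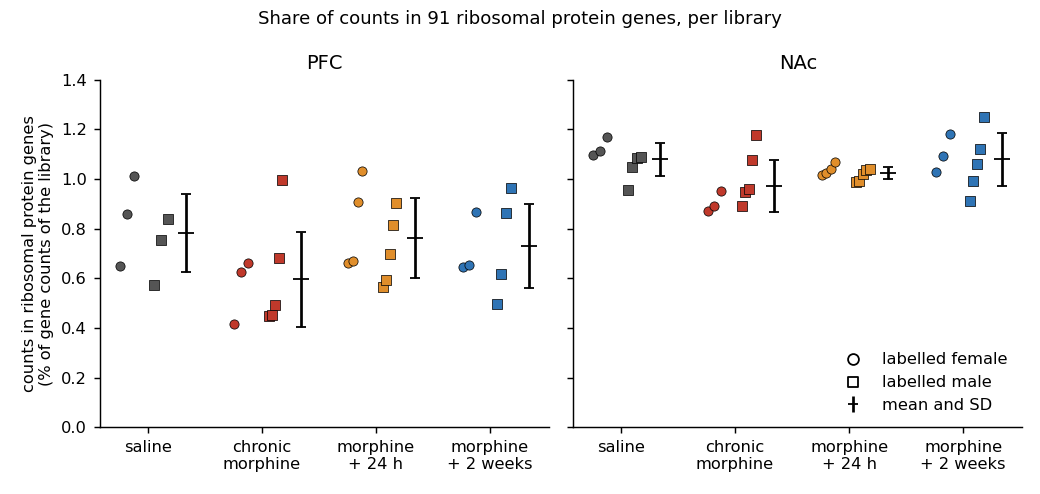
Share of each library's gene counts that fell in the 91 ribosomal protein genes (vertical, percent), by treatment (horizontal), for PFC and NAc. Points are libraries, circles labelled female and squares labelled male, and bars are the mean and SD of a group. PFC libraries range from 0.418% to 1.03% and NAc libraries from 0.873% to 1.25%.

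Within a group, 1 library was often the highest or lowest for most of the genes. In the PFC chronic group the library of number 30 was the highest for 83 of the 87 genes and that of number 26 the lowest for 50. In PFC saline mice number 1 was the highest for 71 and number 6 the lowest for 63. In NAc the highest chronic library, number 32, led for 64 genes, and number 12 led for 69 of the 2-week group. In PFC the large subunit's share was 0.413% ± 0.0766 in saline (SD, n = 6) and 0.316% ± 0.0901 under chronic morphine (n = 8), and the small subunit's 0.314% ± 0.0709 and 0.238% ± 0.0871.

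The first comparison asked whether the genes differed from saline under chronic morphine in PFC. All 87 that passed the low-count filter had a negative log2 fold change, with a median of -0.39, against 0.01 over the 17966 genes tested. The estimates were similar in the large (-0.38) and small (-0.41) subunits and smaller in the P stalk (-0.29). No gene passed the test (edgeR quasi-likelihood, Benjamini-Hochberg adjusted p under 0.05 over all genes), while 28 had an unadjusted p under 0.05 and DESeq2 called 2. Over all genes, 0.417% were called. The 4 that did not pass the filter were Rpl10l, Rpl36-ps4, Rpl9-ps1 and Rpl39l.

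The smallest p were those of Rpl29 and Rps18. Rpl29, a large subunit protein gene on chromosome 9, stood between 4.61 and 5.17 log2 CPM in the saline libraries and at -0.36, 3.84 and 4.65 (lowest, median and highest) in the chronic libraries. Of the 8 chronic libraries, 7 lay below every saline library. Its log2 fold change was -1.29 ± 0.33 (SE), with an adjusted p of 0.0956 by edgeR. Rps18, a protein of the small subunit's head, stood at 5.10, 5.87 and 6.29 in saline and at 3.90, 4.70 and 6.19 under chronic morphine, with 6 of 8 chronic libraries below all saline ones. Its log2 fold change was -0.97 ± 0.27, with an adjusted p of 0.153 by edgeR. The call of Rpl29 depended on single libraries: the count became 1 (Rpl29) without number 27 or without number 10, and 1 (Rps18) without number 30.

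Genes named for their roles had smaller estimates in the same direction. Rps6, whose phosphorylation follows mTOR activity, stood at -0.31 ± 0.19, Rpsa, also known as the laminin receptor precursor, at -0.32 ± 0.18, and Rpl10a, the gene tagged in ribosome purification mice, at -0.31 ± 0.17. The stalk genes stood at -0.28 ± 0.16 (Rplp0), -0.39 ± 0.22 (Rplp1) and -0.29 ± 0.19 (Rplp2). Rpl5 (-0.31 ± 0.21) and Rpl11 (-0.51 ± 0.20), which with 5S RNA bind the p53 regulator MDM2, did not pass either, nor did Rpl22 (-0.23 ± 0.10).

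Other short genes had lower estimates in the same comparison. Among protein-coding genes that are no members, the median log2 fold change was -0.14 for the 917 with a coding sequence of up to 450 bases, -0.07 for those above that and up to 900, 0.00 up to 1800 and 0.10 for the 5370 longer ones. The median coding length of the 91 genes was 456 bases. The mean level of 1908 short non-member genes was 3.09 ± 0.13 log2 CPM in saline (SD, n = 6) and 2.99 ± 0.15 under chronic morphine (n = 8). In 3 of 8 groups of both regions the library lowest in it was also the lowest in ribosomal protein share. In 4 of 8 the highest library was the same. Both matches held in the 2 groups compared here, PFC saline (lowest number 6, highest number 1) and PFC chronic (lowest number 26, highest number 30). With the short-gene mean as a covariate the members' median was -0.35, with number 10 left out it was -0.39, and with both changes it was -0.14. With 2 surrogate variables it was -0.02. The part of gene length and of library quality in these estimates was not tested.

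**Figure D3:**
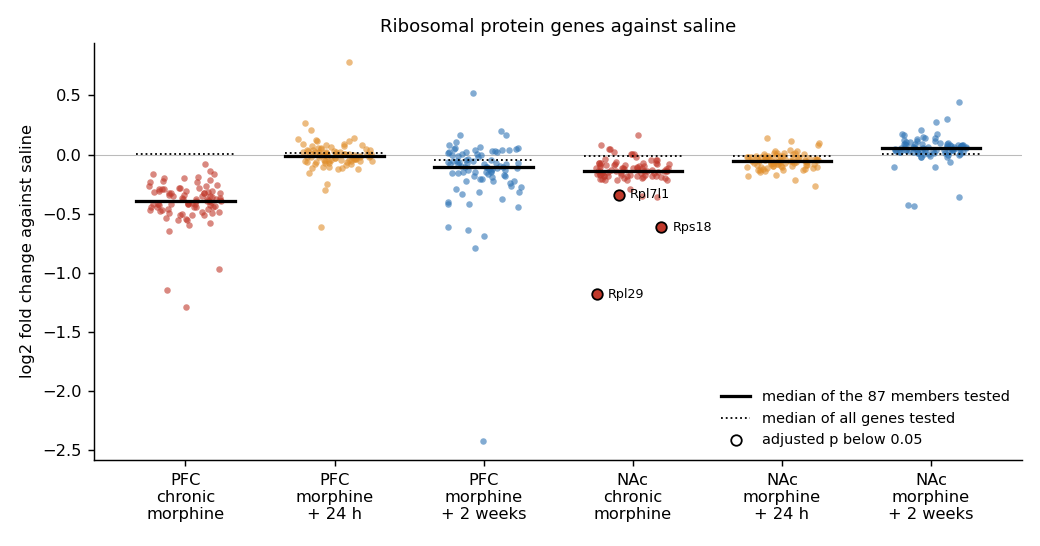
Log2 fold change against saline of the 87 ribosomal protein genes tested (vertical) in the 6 treatment comparisons (horizontal). Points are genes, outlined where the adjusted p was below 0.05, solid lines are medians of these genes and dotted lines medians of all genes tested. The PFC chronic points are all below 0 with a median of -0.39, and the 3 outlined genes are in NAc under chronic morphine.

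In NAc under chronic morphine 3 genes fell: Rps18, Rpl29 and Rpl7l1. They were 3 of 87 tested, against 1.69% of the 18382 genes tested called in either direction and 0.908% called lower. None was higher. In all, 79 of the 87 had a negative estimate, with a median of -0.13 against -0.01 for all genes, and 38 had an unadjusted p under 0.05.

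Rps18 stood at 6.03, 6.23 and 6.68 log2 CPM in the saline NAc libraries (lowest, median and highest) and at 5.21, 5.68 and 6.44 in the chronic ones, of which 5 of 8 lay below every saline library. Its log2 fold change was -0.62 ± 0.11 (SE, adjusted p 0.00427 by edgeR), and it was called in each of the 32 fits that left out 1 NAc library. Rps18 lies at chr17:33951999-33956001 on the minus strand and overlaps Vps52 on the other strand, and 77.8% of its 75-base words occur in other genes, 4 of them pseudogenes. By label, its 3 saline female libraries averaged 6.59 and its 3 chronic female ones 5.47, against 6.15 (n = 4) and 6.02 (n = 5) in males. Of the chronic female libraries, that of number 27 stood at 5.69 and the others at 5.21 and 5.50. That difference between sexes did not pass in the stage by sex test (unadjusted p = 0.00135, adjusted p = 0.268 by edgeR).

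Rpl29 stood at 4.49, 4.59 and 4.98 in saline and at 0.49, 3.75 and 4.80 under chronic morphine, with 6 of 8 chronic libraries below every saline one. Its log2 fold change was -1.18 ± 0.29 (adjusted p 0.0337 by edgeR). It was not called without saline number 1, 3, 5 or 6 or chronic number 26, 29 or 30, and ranged from -1.49 to -0.92 over the 32 fits. Of the 75-base words of Rpl29, 57.4% occur in other genes, 30 of them pseudogenes. Rpl7l1, the paralogue of Rpl7 and known as a ribosome assembly factor, stood at 5.33, 5.43 and 5.67 in saline and 4.84, 5.08 and 5.54 under chronic morphine, with 7 of 8 below every saline library. Its log2 fold change was -0.34 ± 0.08 (adjusted p 0.0264 by edgeR), and the call was lost without saline number 1, 2, 3, 5 or 6 or chronic number 26 or 27. Rpl7 itself stood at -0.16 ± 0.06 (adjusted p 0.221 by edgeR).

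The count in NAc varied with the fit. It was 1 without saline number 1, 3, 5 or 6 or chronic number 26, and 7 without chronic number 32. DESeq2 called 7, a fit with 2 surrogate variables 15, and a fit with the striatal marker level as a covariate 9, all lower. Over all 18382 genes tested these fits called 691, 884 and 675 in either direction, against 311 in the fit reported. The 9 striatal projection neuron markers all had positive estimates here, with a median of 0.57 and 0 called, and summed to 444 to 5566 CPM in saline and 499 to 8813 in chronic libraries. The median was -0.01 here for 961 non-member genes with up to 450 coding bases. The P stalk was near zero, at 0.00 ± 0.06 for Rplp0, -0.04 ± 0.09 for Rplp1 and -0.04 ± 0.08 for Rplp2, and Rps6 stood at -0.16 ± 0.05 (adjusted p 0.0733 by edgeR).

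At 24 h and 2 weeks after morphine no gene passed in either region. In PFC at 24 h, 47 of 87 estimates were negative with a median of -0.01 (0.04 with 2 surrogate variables), and 0 had an unadjusted p under 0.05. The smallest p belonged to Rpl7l1 (-0.16 ± 0.15) and Rpl29 (-0.30 ± 0.32). In NAc at 24 h, 73 were negative with a median of -0.05, and 2 had an unadjusted p under 0.05, Rps6 (-0.11 ± 0.05) and Rpl32 (-0.13 ± 0.06). There the median was -0.07 for non-member genes of up to 450 coding bases. DESeq2 also called 0 in these comparisons, and the shares of all genes called by edgeR were 0.0779% in PFC and 0.163% in NAc.

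In PFC at 2 weeks, 65 of 87 estimates were negative with a median of -0.11, against -0.05 over all genes, and 1 had an unadjusted p under 0.05. Without number 10, 81 were negative with a median of -0.17, and with the striatal marker covariate 83 with a median of -0.18. The median was 0.03 with the short-gene level as a covariate and 0.01 with 2 surrogate variables, so its sign depended on the fit. In NAc at 2 weeks, 75 were positive with a median of 0.05, and 5 had an unadjusted p under 0.05. DESeq2 called 0 in both, and edgeR called 0.00557% of all genes in PFC and 0.00544% in NAc. Rps18 stood at 0.27 ± 0.11 in NAc and -0.05 ± 0.28 in PFC. Rpl30, a large subunit protein gene, stood at -0.36 ± 0.15 in NAc and -0.79 ± 0.29 in PFC, where its lowest library, at 3.34 log2 CPM, was number 10, and -0.60 in PFC without that library. All these comparisons share their region's saline libraries.

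Rpl34, a large subunit protein gene on chromosome 3, was lower in 4 libraries of the 2-week group than in any saline library, in both regions. In PFC the saline libraries lay between 4.97 and 5.93 log2 CPM, while numbers 8, 9, 13 and 15 stood at 3.42, 3.56, 3.57 and 4.12. In NAc the saline libraries lay between 5.44 and 6.16, and numbers 8, 9, 13 and 15 stood at 4.47, 4.4, 4.48 and 5.24. The group's log2 fold change was -0.69 ± 0.35 in PFC and -0.43 ± 0.20 in NAc, neither called. Without number 10 the PFC value was -1.27, not called. Without number 10 and with the short-gene level as a covariate, Rpl34 alone of the members was called in PFC, at -1.06. That fit called 2 of 18536 genes tested. Of the 75-base words of Rpl34, 30.5% occur in other genes, 7 of them pseudogenes.

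Rpl29 showed the same kind of pattern in the chronic group. Number 26 was lowest in both regions, with 17 counts (-0.36 log2 CPM) in PFC and 44 (0.49) in NAc, and number 25 followed at 3.12 and 3.06. In the 24 h group, numbers 21, 22 and 24 stood at 3.83, 3.59 and 3.85 in PFC and 3.49, 3.42 and 4.0 in NAc, below every saline library. Number 23 was also below them, at 4.57 in PFC and 4.29 in NAc. Over the 29 numbers present in both regions other than 10, the 3 lowest numbers were the same in both for Rpl34, Rpl7l1 and Rps27rt, and the single lowest was the same for 12 of 87 genes, Rpl29 among them. These matches were counted for members only, so whether other genes match as often is not known. The labels do not say that a number is an animal. Rpl29, Rpl34 and Rpl30 were followed by number after their values had been seen in part.

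**Figure D4:**
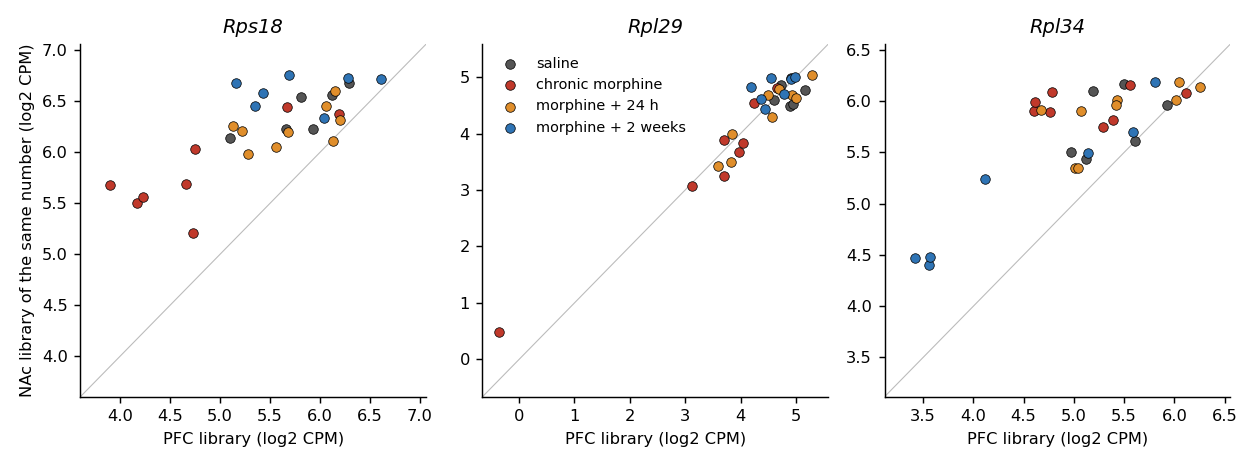
Level in the PFC library (horizontal, log2 CPM) and in the NAc library of the same number (vertical, log2 CPM) for Rps18, Rpl29 and Rpl34. Points are the 30 numbers present in both regions, coloured by treatment, and the line marks equal levels. Number 26 lies at -0.36 and 0.49 for Rpl29, and 3 numbers of the 2-week group lie near 3.5 and 4.5 for Rpl34.

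No gene was called between the sexes or between the regions' responses. In PFC, 0 of 87 genes were called between males and females and 0 had an unadjusted p under 0.05. In NAc, 0 were called and 1, Rpl24 (0.17 ± 0.07 higher in males), had one. In the stage by sex tests 0 were called, with 1 in PFC and 8 in NAc under an unadjusted 0.05. The smallest p were those of Rpl10-ps3 and Rpl22 in PFC (adjusted p 0.907 and 0.9998 by edgeR) and of Rps18 and Rps23 in NAc. Without number 27, labelled female, 0 were called in each of these 4 tests, with 0 and 1 between the sexes and 5 and 10 for stage by sex, in PFC and NAc, under an unadjusted 0.05. They were not run without number 28. In the test of whether treatment effects differed between regions, 0 were called and 0 had an unadjusted p under 0.05. DESeq2 called 0 in all 5 tests. Of all genes, edgeR called 0.0334% and 0.0598% by sex in PFC and NAc, 0% and 0.0544% for stage by sex, and 0.0363% for region by stage. The chronic estimates of -0.39 in PFC and -0.13 in NAc are thus not shown to differ.

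**Figure D5:**
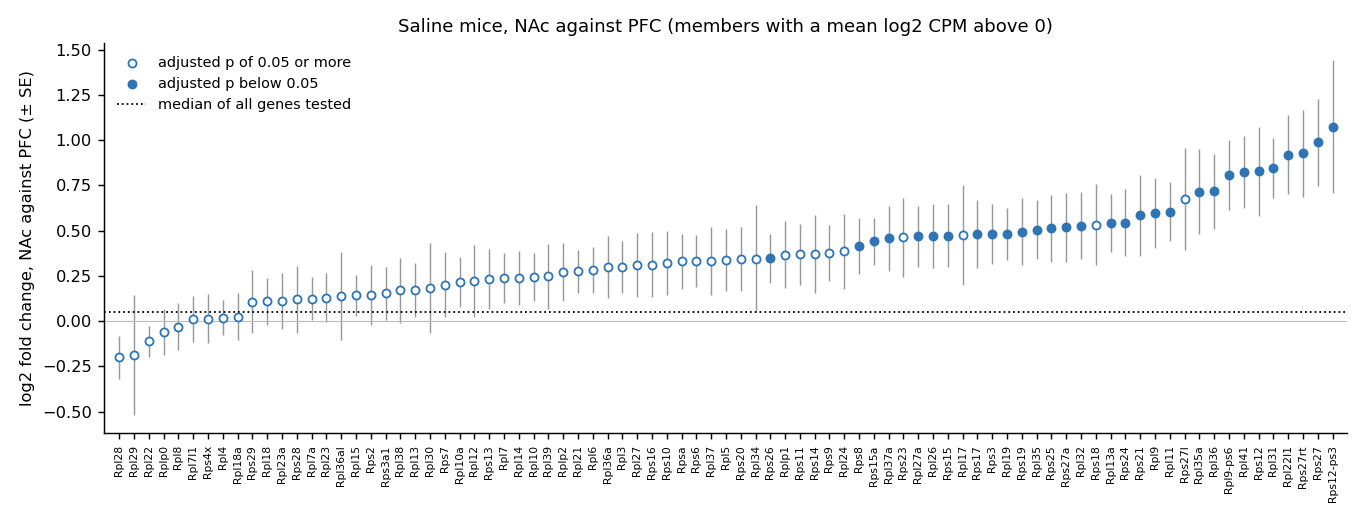
Log2 fold change of NAc against PFC in saline mice (vertical, with SE) for 83 ribosomal protein genes tested with a mean log2 CPM above 0, in order of the estimate (horizontal). Filled points have an adjusted p below 0.05, and the dotted line is the median of all genes tested. The filled points are all above 0, from Rps26 at 0.35 to Rps12-ps3 at 1.07.

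Between the regions, saline mice had higher levels of 30 of the 87 genes in NAc and of none in PFC. The median log2 fold change was 0.34, against 0.05 over the 19266 genes tested, and 81 estimates were positive. Many genes differ between these tissues: 35.9% of all genes were called, 17.4% higher in NAc, and the members' 30 are to be read against that. Each subunit held 15 of the called genes, of 50 and 34 tested, and the P stalk none of its 3.

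The largest changes were those of Rps12-ps3, Rps27 and Rps27rt. Rps27 stood at 4.98, 5.72 and 6.11 log2 CPM in PFC saline libraries and at 6.40, 6.59 and 6.84 in NAc, so the groups did not overlap. Its log2 fold change was 0.99 ± 0.24 (adjusted p 0.000818 by edgeR). Rps27rt was higher by 0.93 ± 0.24 (adjusted p 0.0016 by edgeR), from 1.90, 3.46 and 3.75 to 3.75, 4.24 and 4.57. Given the shared words described above, reads of these 2 genes may not be fully told apart. Rps12-ps3, all of whose words occur elsewhere, was higher by 1.07 ± 0.37 (adjusted p 0.018 by edgeR), and Rps12 by 0.83 ± 0.25 (adjusted p 0.00632 by edgeR).

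Rpl31, a large subunit protein at the exit of the nascent chain, had the smallest p, at 0.85 ± 0.17 (adjusted p 4.1e-05 by edgeR). It stood at 5.64, 6.13 and 6.48 in PFC and 6.74, 6.93 and 7.16 in NAc, without overlap. Of a pair of paralogues, Rpl22l1 was higher in NAc by 0.92 ± 0.22 (adjusted p 0.000651 by edgeR), while Rpl22 stood at -0.11 ± 0.09 (adjusted p 0.324 by edgeR). Rpl11 was higher by 0.61 ± 0.16 (adjusted p 0.00252 by edgeR). Rps6 (0.33 ± 0.14), Rpsa (0.33 ± 0.15), Rpl10a (0.22 ± 0.14), Rpl5 (0.34 ± 0.17) and the stalk genes Rplp0 (-0.06 ± 0.13), Rplp1 (0.37 ± 0.19) and Rplp2 (0.27 ± 0.16) did not pass.

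The count rested partly on 2 PFC libraries. It was 13 without PFC saline number 3 and 15 without PFC saline number 6, the library lowest for 63 of 87 genes, and all calls were higher in NAc. With number 10 left out and the short-gene level as a covariate it was 30, of which 28 were higher and 2 lower. That fit called 8467 of all 19812 genes tested, and the members' median was 0.17. The median was 0.17 here for 1002 non-members of up to 450 coding bases. Reads aligned to several places made up 12.8% to 15.8% of saline PFC libraries and 14.97% to 16.3% of saline NAc libraries, and the part of this in the result was not tested.

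Genes that act with the ribosome were followed as lists. Fau, a ribosomal protein gene outside the rule, was called higher in NAc than in PFC (0.48 ± 0.16, adjusted p 0.0137 by edgeR). A further list held 16 translation factors and other genes known for such starts, of which 5 matched the search above. All 16 had negative estimates under chronic morphine in PFC, with a median of -0.21. In NAc 13 were negative, with a median of -0.10, and none was called in either region. Between regions, where 35.9% of all genes were called and 17.4% higher in NAc, 8 of the 16 were called, 6 higher, among them Npm1 (0.55 ± 0.10) and Eef1b2 (0.52 ± 0.14), a subunit of the exchange factor of elongation.

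The 24 ribosome biogenesis factors had 14 positive estimates in PFC, a median of 0.06 and 0 called under chronic morphine. In NAc their median was -0.06 with 0 called. Between regions 7 were called, a smaller share than the 35.9% of all genes, with 4 higher in NAc, and the largest were Gnl3 (0.48 ± 0.13), a nucleolar GTPase, and Bysl (-0.46 ± 0.12), needed for small subunit assembly. Of 15 genes of mTOR control, 0 were called under chronic morphine, with medians of 0.06 in PFC and 0.01 in NAc. Between regions 5 of the 15 were called, near the 35.9% of all genes, 4 of them lower in NAc, led by Eif4ebp1 (-1.76 ± 0.28), which represses cap-dependent translation, and Deptor (-1.18 ± 0.20), an mTOR inhibitor.

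Small nucleolar RNA host genes, several of which are known for oligopyrimidine starts, were the last list. In NAc 3 of the 8 tested fell under chronic morphine, where 0.908% of all genes were called lower: Zfas1 (-0.83 ± 0.16, adjusted p 0.00631 by edgeR), Snhg12 (-0.72 ± 0.14, adjusted p 0.0046 by edgeR) and Gas5 (-0.34 ± 0.07, adjusted p 0.014 by edgeR). In PFC their median was -0.33 with 0 called. In saline mice 4 of the 8 were higher in NAc than in PFC and none lower, against 17.4% of all genes called higher, with Snhg15 (1.13 ± 0.44) and Zfas1 (1.02 ± 0.21) the largest. At 24 h and 2 weeks, none of these lists had a called gene in either region.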

How the data were processed

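The mouse values deposited by the authors are unnormalized counts of reads in each gene for 62 libraries. Total RNA was sequenced as pairs of 75 bases, per the labels' protocols. The submitters' processing notes name FastQC, cutadapt, STAR, RSEM, Trimmomatic and HISAT2 and the build GRCm38, with no role for each. The counting program and its use of strand are not given in the sources used here. Of the 91 genes, 51 overlap another gene, 25 of them on the other strand, so their counts are uncertain. Rows for unassigned reads stayed out, with median shares of 5.36% and 5.47% (outside genes), 0.832% and 0.834% (ambiguous), 0.605% and 0.540% (unaligned) and 13.7% and 15.3% (several places) in PFC and NAc. The rat table was not used here.

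Symbols, types and positions came from GENCODE M21, with 45229 of 46078 identifiers matched. Each region was fitted alone with edgeR 4.0.16 (R 4.3.3): TMM scaling, filterByExpr, stage by sex cells, contrasts averaged over the sexes, quasi-likelihood tests and Benjamini-Hochberg adjustment over all genes tested. The region comparison used 1 fit over both regions. Genes with an adjusted p under 0.05 are said to be called. Standard errors were taken from the log2 fold change and F. CPM and log2 CPM used 1 TMM scaling over both regions, and log2 CPM a prior count of 2. The script was tested on simulated data.

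Members and lists were chosen with earlier results of these data known. Genes named are, in each comparison, all called members up to 6, else the 3 largest rises and falls, and with 0 called the 2 with the smallest p. The 2 highest and 2 lowest of each subunit per kilobase, paralogue pairs, 9 genes of known role and up to 2 called genes of each list were added. Others were named after their values were seen. Alternatives were median-of-ratios scaling, no filter, DESeq2 1.42.0, 2 surrogate variables (sva 3.50.0), a striatal marker covariate, each library left out and a replicate block. A covariate for short genes (coding sequence of up to 600 bases) and fits without number 10 or number 27 were added after the data were seen. Values of some genes are not reported here.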

Additional observations from a re-analysis of the deposited data

Results flagged for a closer look

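Each treatment group was examined for a library far from the rest, for 14 quantities in 8 groups. A library stood apart in 7 of these sets, and chance gives about 1 in 20. In the PFC chronic group, number 30 had 0.996% of its counts in ribosomal protein genes, against 0.680% in the next library. Rpl29 stood at -0.36 log2 CPM in number 26 in PFC, next to 3.12, and at 0.49 in the NAc library of that number, next to 3.06. PFC number 10, the shallow library of the 2-week group, was low for Rpl7l1 (4.22, next 5.28), Rpl30 (3.34, next 4.91) and Rps27rt (0.29, next 2.50). Rps27rt was also low in PFC saline number 6, at 1.90 against 3.33.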

How the results depend on the processing

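Under chronic morphine in PFC, the count of called genes was 0 in the fit reported, 1 with no filter on low counts, 2 with DESeq2, 1 without number 10 and 1 without number 27, and 0 to 1 with each library left out. In NAc under chronic morphine, where the fit reported called 311 of all genes, it was 3. It was 7 with DESeq2 (691 of all genes), 15 with 2 surrogate variables (884) and 9 with the striatal marker covariate (675). With each library left out it was 1 to 7. At 2 weeks it was 1 in PFC without number 10 and with the short-gene covariate, and 0 to 1 in NAc with each library left out, the 1 without number 10 of NAc. Between regions in saline mice it was 30, and 13 to 36 with each library left out. The cause of these moves was not tested. No called gene changed sign, but medians near 0 did: the PFC medians became positive at 24 h (0.04) and at 2 weeks (0.01) with 2 surrogate variables, and that between the sexes went from -0.03 to 0.03. Of the counts of called genes, 271 were within 1.5 times the value reported and 20 moved further. Of the values of single genes, 576 kept direction and side of the threshold, 16 were classed as weaker and 9 as stronger. The low counts of PFC number 10 limit what its levels can show.

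Replicate numbers were compared between regions. Over 30 numbers, the correlation of same-numbered libraries' deviations from their group means ran from 0.01 to 0.22 with a median of 0.07. Pairing was to be assumed only if every correlation exceeded 0.1, and 5 did. The main fits therefore treated the libraries as independent, which does not exclude that the numbers pair them. With the replicate block, 40 members were called between regions in saline mice, where 6266 of all 19231 genes were called, and 0 for region by stage. Of 30 PFC libraries, 14 correlated best with the NAc library of their own number.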

Other observations

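Genes of the mitochondrial ribosome, listed after the data were seen, are the nearest counterpart of the cytosolic set. Of 78 such genes 77 were tested. Under chronic morphine in PFC, 64 had negative estimates with a median of -0.11 and 0 were called by edgeR (1 had an unadjusted p under 0.05), and in NAc the median was 0.00 with 1 called lower. In saline mice 16 were higher and 2 lower in NAc than in PFC, with a median of 0.17, where 35.9% of all genes were called and 17.4% were higher in NAc.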
